A study of Mus musculus with 162 samples.

Results

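Glycogen is made and broken down by a small set of enzymes, and 10 of their genes are reported here, out of 53686 genes in the count table. They were chosen by their place in the pathway: both glycogen synthases, the priming and branching enzymes, the 3 glycogen phosphorylases, and 3 subunits that bring protein phosphatase 1 to the glycogen particle.

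The study followed short-term fasting in adult male C57Bl/6J mice of 8 to 9 weeks by sequencing messenger RNA from 9 organs. The 18 mice were fed freely (0 h) or fasted for 2, 8, 12, 18 or 22 h, 3 mice per time. Every mouse was killed at the same clock time, early in the dark phase, so fasting times differ in when food was taken away and not in the hour of sampling. Each mouse gave the olfactory bulb (OB), brain (BRN), cerebellum (CBL), brainstem (BST), stomach (STM), liver (LIV), interscapular brown fat (iBAT), perigonadal white fat (pgWAT) and posterior subcutaneous white fat (psWAT).

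The libraries used held between 3045845 and 27801717 assigned reads, with a median of 8735554. The ranges were 8224940 to 17704828 in OB, 3045845 to 12108290 in BRN, 6487419 to 22071004 in CBL and 6998492 to 11776354 in BST. They were 6851903 to 13769280 in STM, 6959200 to 12451777 in LIV, 3156101 to 27801717 in iBAT, 5784709 to 19829510 in pgWAT and 4099281 to 9802381 in psWAT. BRN 8 h replicate 3, BRN 18 h replicate 1, STM 12 h replicate 3, iBAT 22 h replicate 1 and psWAT 22 h replicate 2 were left out for low depth. Of those used, psWAT 12 h replicate 3, pgWAT 22 h replicate 2, BRN 2 h replicate 3 and BRN 18 h replicate 2 stand apart, since their profiles lie nearest to another organ's. In psWAT 12 h replicate 3 the cerebellar neuron markers summed to 3094 CPM. In pgWAT 22 h replicate 2 the 5 epididymis and testis markers summed to 22315 CPM and the adipocyte markers to 3690 CPM, against 19832 to 39387 CPM of adipocyte markers in the other pgWAT libraries.

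Glycogenin primes a new glycogen particle, glycogen synthase lengthens its chains, and the branching enzyme adds the branch points. Phosphorylase shortens the chains to release glucose phosphate, and the liver can turn this into free glucose for the blood. Much of the control acts on the enzymes themselves, by phosphorylation and by allosteric effectors, so messenger RNA reports on the capacity of the pathway and not on its flux.

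The first question was how the organs divide the synthase isoforms. Organs are said not to overlap where at least 90 percent of the mice with both have them in the same order. Normalized CPM were scaled within each organ, so these orders carry no normalization between organs. Gys1 (chromosome 7, 45434844 to 45456619, plus strand) encodes the synthase of muscle and most other tissues, and Gys2 (chromosome 6, 142422613 to 142473109, minus strand) encodes the liver synthase. Over the fasting times, Gys1 averaged 228 normalized CPM in iBAT (SD 49.7, n = 17), above 140 in pgWAT (SD 34.5, n = 18) in 16 of 17 mice, and STM averaged 51.1. The brain regions lay lower, between 18.96 in OB and 25.9 normalized CPM in BRN, and LIV was lowest at 6.11 (SD 2.86), below OB, the next organ, in each of 18 mice. Gys2 was highest where Gys1 was lowest, with 243 normalized CPM in LIV (SD 48.5, n = 18) and 70.9 in iBAT (SD 23.96, n = 17), without overlap. White fat had lower means of Gys2, at 17.8 normalized CPM in psWAT (SD 22.2) and 14.3 in pgWAT, and the brain regions and STM averaged under 1. iBAT lay above psWAT in 14 of 16 mice, so these overlapped. Per kilobase of exon, LIV held 91.3 normalized CPM of Gys2 against 1.28 of Gys1, with Gys2 higher in 18 of 18 libraries. Brown fat carried both synthases, at 47.7 normalized CPM per kb for Gys1 and 26.7 for Gys2, with Gys1 higher in 16 of 17 libraries.

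Branching and priming enzymes were likewise highest in fat. Gbe1 (chromosome 16, 70313949 to 70569716, plus strand) encodes the branching enzyme and averaged 311 normalized CPM in iBAT (SD 84.3), without overlap with the next organ, pgWAT, at 127. LIV reached 44.2 normalized CPM of Gbe1, overlapping with psWAT at 60.2, while BRN was lowest at 9.20. Gyg (chromosome 3, 20122084 to 20155317, minus strand) encodes glycogenin, and its 3 highest means were in fat, with 112.8 normalized CPM in iBAT (SD 30.6), 108.7 in psWAT and 97.2 in pgWAT. LIV again held the least Gyg, at 4.46 normalized CPM (SD 1.52). Per kilobase, Gbe1 exceeded Gyg in 18 of 18 LIV libraries (8.26 against 1.90 normalized CPM per kb) and in 14 of 17 iBAT libraries (58.1 against 48.1).

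Phosphorylase isoforms divided the organs sharply. Pygl (chromosome 12, 70190811 to 70231488, minus strand) encodes the liver form, and it averaged 506 normalized CPM in iBAT (SD 100.5), 358 in LIV (SD 51.4) and 244 in pgWAT (SD 45.3), without overlap between these 3. Between these and the low values of STM at 9.50 and CBL at 1.90 normalized CPM lay psWAT, at 119.7 (SD 109.8). Pygb (chromosome 2, 150786735 to 150831758, plus strand) encodes the brain form, yet its highest mean was in pgWAT, at 431 normalized CPM (SD 89.5), overlapping with BST at 358 (SD 29.7). LIV held only 2.96 normalized CPM of Pygb (SD 0.828), the lowest mean of all organs. Per kilobase, LIV had 52.0 normalized CPM of Pygl against 0.616 of Pygb, and iBAT had 73.4 against 18.7, with Pygl higher in every library of both. pgWAT turned the other way, with 89.7 normalized CPM per kb of Pygb against 35.5 of Pygl, and Pygl higher in 0 of 18 libraries.

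Pygm (chromosome 19, 6384399 to 6398459, plus strand), the muscle phosphorylase, stayed between 0 and 6 counts per library, with a sum of 41 counts over all libraries. It passed the filter in no organ and was not tested. Its neighbour Rasgrp2 stayed at or below 10 counts, with a sum of 185. Skeletal muscle messenger RNA was present in several libraries, since the sum of all 10 of 10 muscle markers, led by Acta1, reached 43286 CPM in psWAT 2 h replicate 2. Near-zero counts of Pygm therefore cannot be read as absence of its transcript, and their cause was not tested.

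Subunits that target protein phosphatase 1 to glycogen favour synthase activity. Ppp1r3b (chromosome 8, 35375739 to 35388139, plus strand), the subunit first known from liver, averaged 550 normalized CPM in iBAT (SD 305) and 474 in LIV (SD 118.4). These overlapped, with iBAT higher in 9 of 17 mice, and psWAT followed at 76.5. The organ contrast below, normalized over all organs, gave a larger Ppp1r3b difference in LIV than in iBAT, the reverse of this order of means. Ppp1r3c (chromosome 19, 36731731 to 36736653, minus strand), a subunit found in many tissues, was also highest in iBAT, at 163.7 normalized CPM (SD 61.9), and lowest in STM at 13.3. Ppp1r3g (chromosome 13, 35958839 to 35970388, plus strand), described as a liver subunit that acts after meals, was highest in BRN at 10.8 normalized CPM (SD 2.71), with 4.73 in OB, 4.62 in BST and 1.96 in LIV (SD 2.35). Per kilobase, BRN held 21.6 normalized CPM of Ppp1r3c, 4.02 of Ppp1r3g and 0.355 of Ppp1r3b. LIV held 76.3 normalized CPM per kb of Ppp1r3b against 12.0 of Ppp1r3c, with Ppp1r3b higher in 18 of 18 libraries.

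**Figure D1:**
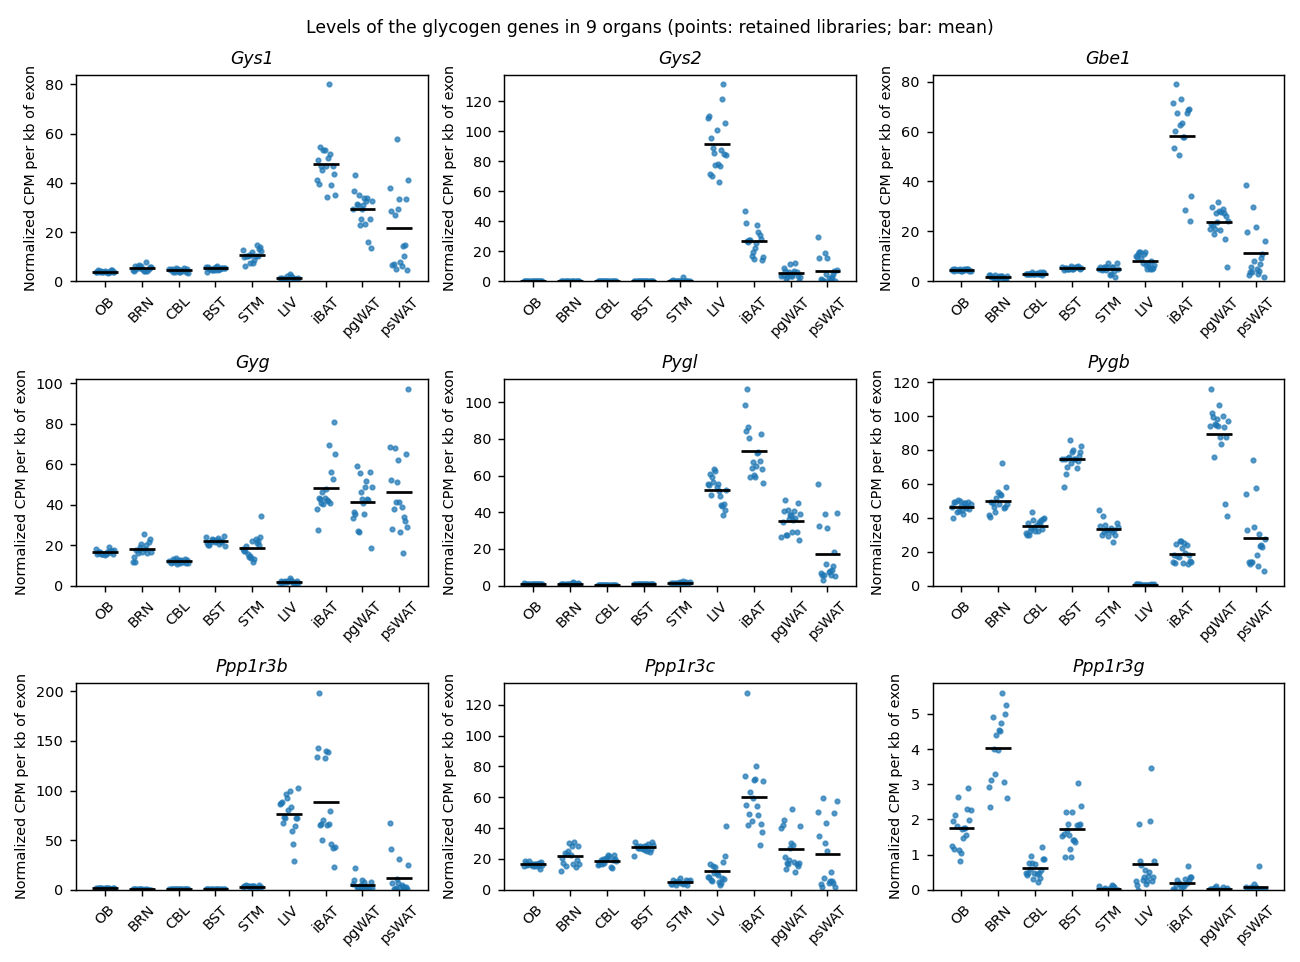
Normalized CPM per kilobase of exon (vertical axes) of 9 glycogen genes in the 9 organs (horizontal axes), with a point per library over all fasting times and a bar at the mean. LIV holds Gys2 at 91.3 and Gys1 at 1.28, while iBAT holds 26.7 and 47.7.

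Each organ was then set against the mean of the other 8 in a fit with the mouse as block, where most of the 21601 genes differ and a called member is therefore common. Of 9 glycogen genes tested, 7 were higher and 0 lower in iBAT, where 71.7 percent of all genes were called. pgWAT had 7 higher and 1 lower beside 72.4 percent, and psWAT 5 higher and 2 lower beside 73.4 percent. LIV had 5 higher and 3 lower, where 79.0 percent of genes were called, and STM 3 higher and 5 lower beside 71.0 percent. In the brain regions the counts were 2 higher and 7 lower in OB (75.5 percent of genes called), 2 and 6 in BRN (74.7 percent), 1 and 6 in CBL (75.8 percent), and 3 and 5 in BST (76.8 percent). Over all genes, 8860 were higher and 7438 lower in OB, 8938 and 7661 in BST, 7556 and 7926 in iBAT, and 7787 and 9285 in LIV. In white fat they were 8913 and 6722 in pgWAT and 8902 and 6959 in psWAT, the same direction as most members there. Log2 differences were 5.11 for Pygl in iBAT (SE 0.0947) and 4.80 in LIV, 5.74 for Ppp1r3b in LIV and 5.58 in iBAT, and 3.83 for Gbe1 in iBAT. Gys1 was 3.36 higher in iBAT and 2.27 lower in LIV on the log2 scale, and Pygb was 1.88 higher in pgWAT and 5.31 lower in LIV.

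Fasting in LIV was read as the late fast (18 and 22 h) against fed mice, the daytime fast (8 and 12 h) against fed mice, the late against the daytime fast, and a joint test over all 6 times. The liver empties most of its glycogen in the first part of a fast, so the comparison asks which genes of the store differ in messenger RNA while it is being used and after. LIV libraries carried hepatocyte markers at 73479 to 102966 CPM (5 of 5 genes, led by Alb). The 10 skeletal muscle markers reached 1036 and 409 CPM in 12 h replicates 1 and 2, with 214 CPM or less in the others, and fits without that pair were run. Lane goes with time here: 0 and 2 h and 8 h replicates 1 and 2 ran in lane 1, and all later libraries with 8 h replicate 3 in lane 2. A lane effect and a late fast effect can thus be separated only through the 3 mice at 8 h.

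Neither synthase was called in LIV in edgeR's test of the late fast against fed mice, though Gys1 was called in other comparisons given below. Gys2 lay at 289, 292 and 190 normalized CPM in fed mice, at 232.9, 323 and 349 at 18 h and at 225, 281 and 223 at 22 h, so the groups overlapped. Gys1 measured 5.65, 5.07 and 5.92 normalized CPM fed, reached 13.8, 11.3 and 7.59 at 12 h, and stood at 6.19, 3.34 and 4.10 at 18 h and 4.02, 3.88 and 6.31 at 22 h.

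Gbe1 and Pygl fell in LIV, which places the branching enzyme and the liver phosphorylase on the same side of the late fast. Gbe1 measured 54.5, 52.9 and 59.3 normalized CPM in fed mice and 63.6, 63.4 and 50.4 at 2 h. It was 38.8, 58.04 and 63.2 at 8 h and 34.2, 27.1 and 37.8 at 12 h, then 30.95, 26.9 and 43.3 at 18 h and 27.2, 28.7 and 35.4 at 22 h. All 6 late libraries lay below the 3 fed ones, a log2 change of -0.79 (SE 0.158) with an adjusted p of 0.00368 in edgeR's quasi-likelihood test with Benjamini-Hochberg adjustment. Pygl measured 381, 379 and 421 normalized CPM fed, 304, 299 and 264 at 18 h, and 307, 283 and 361 at 22 h, again with 6 of 6 late libraries below the fed ones. Its log2 change was -0.38 (SE 0.103), with an edgeR adjusted p of 0.0231. That call was lost without 0 h replicates 1, 2 or 3 (edgeR adjusted p 0.0613, 0.0641 and 0.0926) or 22 h replicate 2 (0.0587). With lane in the fit neither was called: Gbe1 had a log2 change of -1.17 (edgeR adjusted p 0.0819, range over its alternatives 3.46e-07 to 0.0819) and Pygl one of -0.14 (0.788, range 0.00290 to 0.788). With no filter Pygl was not called either (edgeR adjusted p 0.0564), while Ppp1r3b (-0.50, 0.00447) and Ppp1r3c (0.44, 0.0310) were. Within lane 2, the late fast against 12 h gave -0.04 for Gbe1 (edgeR adjusted p 0.933) and -0.25 for Pygl (0.329). Within lane 1, 8 h against fed gave -0.18 for Gbe1 (edgeR adjusted p 0.552) and 0.15 for Pygl (0.510).

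Ppp1r3g rose in the late fast from counts near 0, though its 2 h values lay above the fed ones too. Fed LIV libraries held 5, 3 and 0 counts of it (0.642, 0.380 and 0 normalized CPM), 2 h libraries 42, 26 and 16 (5.06, 2.17 and 1.89 normalized CPM), 18 h libraries 13, 38 and 98 (1.34, 5.29 and 9.35 normalized CPM), and 22 h libraries 6, 8 and 20. Between these, it was 0.769, 0.984 and 1.52 normalized CPM at 8 h and 0.458, 0.659 and 1.04 at 12 h. A count of 0 in a fed library does not show that the transcript was absent. Late values exceeded all fed ones in 5 of 6 libraries, and the log2 change was 2.85 (SE 0.753, edgeR adjusted p 0.0217). It was not called without 0 h replicate 2 (log2 2.91, edgeR adjusted p 0.0852), 0 h replicate 3 (2.32, 0.0793) or 22 h replicate 3 (2.52, 0.0512). With lane in the fit the log2 change was 2.07 (edgeR adjusted p 0.480, range over alternatives 7.94e-06 to 0.480), and against 12 h within lane 2 it was 1.87 (0.217).

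Ppp1r3b, the most abundant of the targeting subunits in LIV per kilobase, spanned 178 to 638 normalized CPM in the late fast around fed values of 539, 543 and 551. Of 6 late libraries 5 lay below all fed ones, and the log2 change of -0.50 was not called (edgeR adjusted p 0.1001). Without 18 h replicate 3 it was -0.67 and called (edgeR adjusted p 0.0149). Ppp1r3c ran from 12.7 to 112.4 normalized CPM in the late fast, against 22.99, 23.3 and 46.4 in fed mice, with no direction shared by the libraries. Pygb and Gyg stayed low in LIV, with medians of 2.59 and 3.80 normalized CPM in the late fast.

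In counts, 3 of the 9 glycogen genes tested were called in the LIV late fast, 1 up and 2 down, where 10.6 percent of 14023 genes were called. With an absolute log2 change above 1 required as well, 1 remained (Ppp1r3g), where 1.66 percent of genes passed. The daytime fast gave 0 of 9 in edgeR's test beside 8.89 percent of all genes, with 3 at unadjusted p under 0.05 and 0 in DESeq2. Within organs, here and below, the percentages are edgeR's at adjusted p. Shares of all genes at unadjusted p or in DESeq2 are not given, so those counts are not read as results about the glycogen genes. The joint test called 5 of 9, where 16.0 percent of genes were called, and the late against the daytime fast called 2 of 9, where 2.70 percent were. The median log2 change of the 9 genes in the late fast was -0.25, and that of all genes 0.01.

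**Figure D2:**
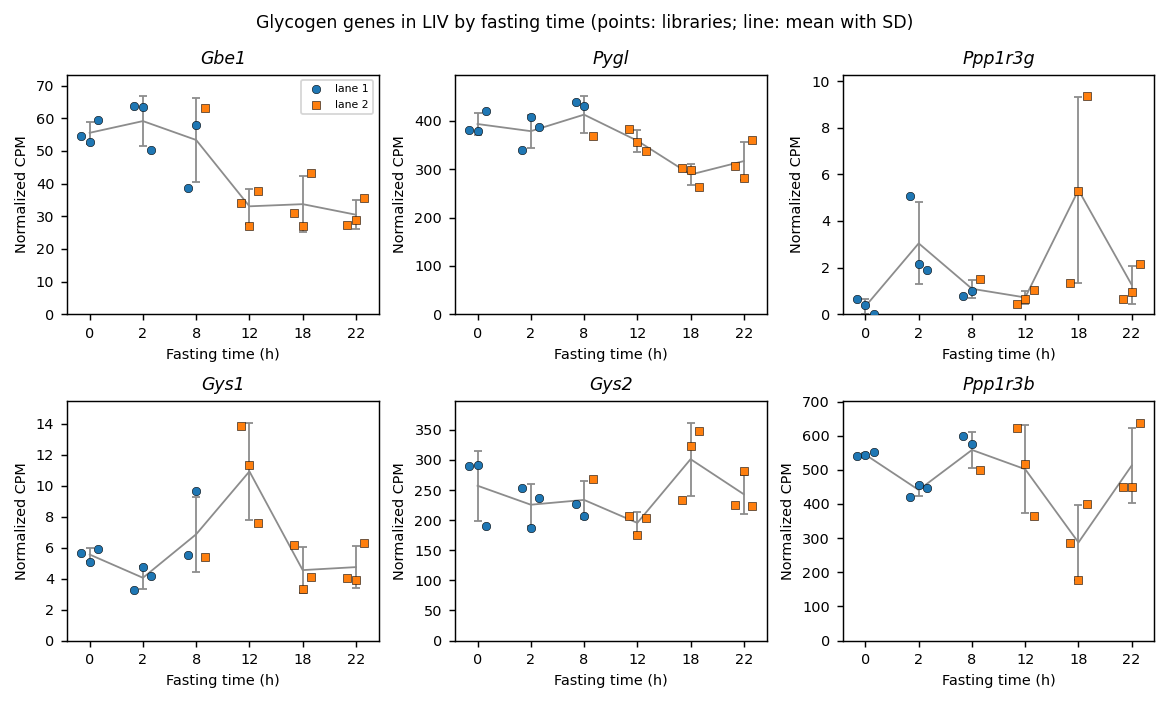
Normalized CPM (vertical axes) of Gbe1, Pygl, Ppp1r3g, Gys1, Gys2 and Ppp1r3b in LIV by hours of fasting (horizontal axes), with a point per library marked by lane and a line at the mean with SD. Gbe1 lies at 52.9 to 59.3 in fed mice and at 26.9 to 43.3 in the late fast.

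Between the daytime and the late fast, Gys1 and Pygl were the glycogen genes that edgeR called in LIV, both lower in the late fast. Ppp1r3b (log2 -0.46, edgeR adjusted p 0.106) and Gbe1 (-0.39, 0.102) were lower too, without a call. DESeq2 called Ppp1r3b as well (adjusted p 0.0471). Gys1 dropped by 0.90 on the log2 scale (SE 0.206, edgeR adjusted p 0.0303), with 4 of 6 late libraries below all daytime ones. It was not called without 8 h replicate 1 (edgeR adjusted p 0.0533), 8 h replicate 2 (0.1002), 12 h replicate 2 (0.0647), 18 h replicate 2 (0.0799), 18 h replicate 3 (0.0654), 22 h replicate 1 (0.0548) or 22 h replicate 2 (0.0815). Leaving out the pair of 12 h libraries with muscle markers gave -0.63 (edgeR adjusted p 0.214), and lane in the fit -0.72 (0.285), over a range of 0.000192 to 0.285 among its alternatives. Pygl differed by -0.35 (SE 0.0854, edgeR adjusted p 0.0357), with 5 of 6 late libraries below all daytime ones. Its call was lost without 8 h replicate 1 (0.0865), 8 h replicate 2 (0.0980), 12 h replicates 1, 2 and 3 (0.0555, 0.0758 and 0.0634), 18 h replicates 2 and 3 (0.0746 and 0.0765), 22 h replicate 1 (0.0643) or 22 h replicate 2 (0.1001). Of 7 alternatives for Pygl 4 lost the call, among them lane (-0.27, edgeR adjusted p 0.319) and leaving out those 12 h libraries (-0.31, 0.170), over a range of 0.00195 to 0.319. Leaving out 1 library could also add genes: Gys2 (log2 0.41, edgeR adjusted p 0.0314) and Ppp1r3g (1.78, 0.0123) without 18 h replicate 1, and Ppp1r3b (-0.62, 0.0429) without 18 h replicate 3.

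Over all 6 times in LIV the joint test called Gbe1 (edgeR adjusted p 0.00319), Ppp1r3g (0.00848), Gys1 (0.0120), Pygl (0.0285) and Ppp1r3b (0.0486). Ppp1r3g kept its call in every alternative, to an adjusted p of at most 0.0363, and without any 1 library. Gbe1 lost it with lane in the fit (edgeR adjusted p 0.0809, range 1.31e-13 to 0.0809). Gys1 lost it without 12 h replicate 1 (edgeR adjusted p 0.0536), a library with high muscle markers, and Pygl without 8 h replicate 1 (0.0613), 8 h replicate 2 (0.0544), 18 h replicate 3 (0.0642) or 22 h replicate 2 (0.0535). Among the alternatives, Gys1 lost it without the pair of 12 h libraries rich in muscle markers (edgeR adjusted p 0.265, range 2.97e-06 to 0.265). Pygl lost it in 3 of 7 (edgeR adjusted p up to 0.262 with lane, range 0.000433 to 0.262), and Ppp1r3b in 2 (up to 0.126 with lane, range 1.45e-07 to 0.126). Ppp1r3b was called only without 12 h replicate 1, 12 h replicate 3, 18 h replicate 3 or 22 h replicate 3, and the other 14 libraries each took it to an edgeR adjusted p of 0.0523 to 0.123. Gys2 was called without 0 h replicate 3 (edgeR adjusted p 0.0454) or 18 h replicate 1 (0.0401).

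Brown fat burns glucose and fatty acids for heat and rebuilds its own glycogen after feeding. The comparison of fasted with fed iBAT asks whether genes of this store differ with food, beside the liver's. Brown adipocyte markers (4 of 4 genes, led by Ucp1) ran from 3905 to 10049 CPM. Adipocyte markers (5 of 5, led by Fabp4) lay at 23069 and 20767 CPM at 22 h against 8658 to 12594 in fed mice, and skeletal muscle markers spanned 48.9 to 13979 CPM, so the make-up of these samples varied. The part of cell make-up in the results was not tested, and fewer cells of a type cannot be told apart from less RNA per cell. Each retained 22 h library was the only retained iBAT library of its lane, so lane and 22 h cannot be separated in iBAT.

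Ppp1r3b showed the largest change among the glycogen genes of iBAT that passed the filter. It measured 831, 891 and 1234 normalized CPM in fed mice, 409, 410 and 313 after only 2 h, 439, 826 and 867 at 8 h, and 408, 861 and 414 at 12 h. At 18 h it stood at 492, 286 and 264 and at 22 h at 142.7 and 265 normalized CPM, so all 5 late libraries lay below the 3 fed ones. The log2 change was -1.89 (SE 0.3003, edgeR adjusted p 0.00146), and leaving out any 1 library kept the call. Ppp1r3c fell from 201, 150 and 348 normalized CPM in fed mice to 132.1, 78.9 and 115.6 at 18 h and 101.9 and 192.7 at 22 h, with 4 of 5 below all fed ones. Its log2 change was -0.88 (SE 0.272, edgeR adjusted p 0.0314). It lost the call without 0 h replicate 3 (-0.47, edgeR adjusted p 0.227), 18 h replicate 2 (-0.78, 0.0654), 18 h replicate 3 (-0.90, 0.0501) or 22 h replicate 2 (-0.69, 0.128). The library series term gave the same (-0.69, 0.130, range over alternatives 0.0138 to 0.130), since 22 h replicate 2 is the only retained iBAT library of its series.

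Gys2 and Pygl, the isoforms named for liver, also fell in iBAT. Gys2 measured 125.1, 103.7 and 70.9 normalized CPM fed, 87.8, 82.7 and 74.9 at 18 h, and 37.9 and 43.7 at 22 h, so the 18 h mice overlapped with the fed ones and 2 of 5 late libraries lay below them. The log2 change was -0.79 (SE 0.191, edgeR adjusted p 0.0110), lost without 0 h replicate 1 (-0.60, 0.0524) or 0 h replicate 2 (-0.77, 0.0514). Pygl measured 678, 581 and 741 normalized CPM fed, 503, 470 and 569 at 18 h, and 436 and 387 at 22 h, with 5 of 5 below all fed ones. Its log2 change was -0.53 (SE 0.156, edgeR adjusted p 0.0245), lost without 0 h replicate 1 (0.0526), 0 h replicate 3 (0.0811) or 18 h replicate 2 (0.0517). Pygl also lost its call in 3 of 9 alternatives: with each library's trend over exon length taken out (log2 -0.17, edgeR adjusted p 0.548), with lane in the fit (-0.45, 0.0925) and without 22 h (-0.39, 0.438), over a range of 0.00605 to 0.548.

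Gyg, the primer, went the other way and rose. Its values were 89.2, 64.7 and 101.1 normalized CPM in fed iBAT, 95.5, 131.3 and 123.2 at 18 h, and 188.9 and 152.4 at 22 h, with 4 of 5 above all fed ones. The log2 change was 0.73 (SE 0.200, edgeR adjusted p 0.0186), and it was not called without 0 h replicate 2 (0.56, 0.124) or 22 h replicate 2 (0.64, 0.0643). Library series, which sets apart that 1 library, gave 0.65 (edgeR adjusted p 0.0624). The call was also lost with the length trend taken out (0.50, edgeR adjusted p 0.0574) and without 22 h (0.44, 0.482), over a range of 0.00326 to 0.482. Gbe1 stayed at 360 to 370 normalized CPM at 18 h, near its fed values of 286 to 383, and was 130 and 182 at 22 h. Its late change was not called (log2 -0.47, edgeR adjusted p 0.125), but it was without 12 h replicate 3 (-0.46, 0.0456) and with lane in the fit (-0.60, 0.0331). That lane fit cannot separate lane from 22 h. Gys1 differed by -0.03 on the log2 scale, so the muscle synthase, the more abundant one here, showed no change that the test could see. Ppp1r3g did not pass the filter in iBAT, with 1, 0 and 0 counts in fed mice, 14, 17 and 8 at 18 h and 3 and 9 at 22 h. It was called there with no filter (log2 4.71, edgeR adjusted p 0.00251) and in DESeq2 (5.08, adjusted p 0.00278), with 5 of 5 late libraries above the fed ones.

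In iBAT 5 of 8 glycogen genes tested were called in the late fast, 1 up and 4 down, where 20.9 percent of 14529 genes were called. With an absolute log2 change above 1 required too, 1 remained (Ppp1r3b), where 9.60 percent of genes passed. The daytime fast gave 0 of 8 in edgeR's test beside 0.819 percent of genes, with 4 at unadjusted p under 0.05 and 2 in DESeq2. Nearest to a call there were Gys2 (log2 -0.77, edgeR adjusted p 0.0576) and Pygl (-0.58, 0.0912), the latter below all fed libraries in 6 of 6. Gys2 was called in the daytime fast without 0 h replicate 3 (-0.96, edgeR adjusted p 0.0268) or 12 h replicate 3 (-0.91, 0.0100). The joint test called 4 of 8, where 29 percent of genes were called: Ppp1r3b (edgeR adjusted p 0.00292), Gys2 (0.00329), Gbe1 (0.0231) and Gyg (0.0450).

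**Figure D3:**
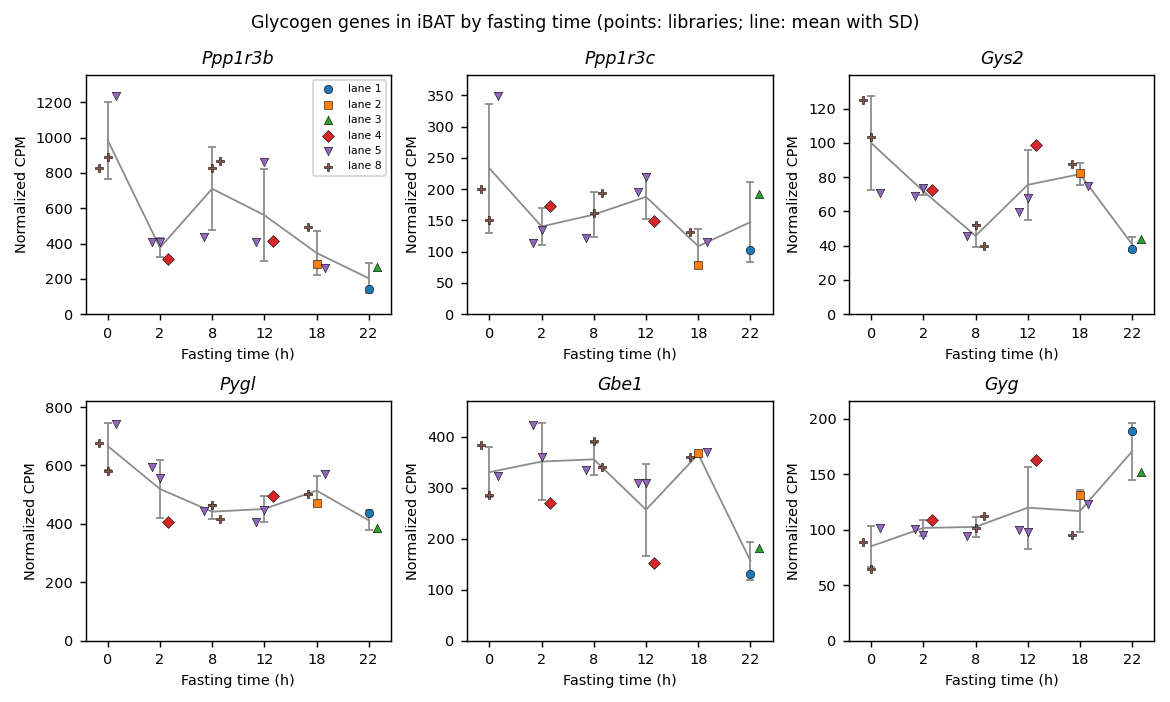
Normalized CPM (vertical axes) of Ppp1r3b, Ppp1r3c, Gys2, Pygl, Gbe1 and Gyg in iBAT by hours of fasting (horizontal axes), with a point per retained library marked by lane and a line at the mean with SD. Ppp1r3b lies at 831 to 1234 in fed mice and at 142.7 to 492 in the late fast.

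The median late log2 change of the 8 glycogen genes in iBAT was -0.50, and that of all genes -0.07. Over all genes the late change in iBAT also ran with exon length (Spearman rho -0.475, across genes, which are not independent replicates), against -0.0220 in LIV. Such a trend was not particular to iBAT, with rho at -0.408 in BRN, -0.379 in OB and -0.347 in pgWAT. The remaining organs lay between 0.0197 (CBL) and 0.175 (STM). Both retained 22 h libraries of iBAT weigh on the calls. Without them, in an alternative chosen after seeing the data, 0 of 8 glycogen genes were called in edgeR's late or joint test. The share of all genes called without them is not given here, so this count is not read as a result about these genes. The late log2 change was then -1.52 for Ppp1r3b (edgeR adjusted p 0.0618, range over its alternatives 2.09e-07 to 0.0618), -1.11 for Ppp1r3c (0.128, range 0.0138 to 0.130), -0.30 for Gys2 (0.677, range 0.00197 to 0.677) and 0.44 for Gyg (0.482, range 0.00326 to 0.482). In the joint test Gbe1 lost its call without 22 h replicate 2 (edgeR adjusted p 0.209). Gyg kept its joint call only without 0 h replicate 3, 18 h replicate 1 or any 1 of the 12 h libraries, and each of the other 12 took it to an edgeR adjusted p between 0.0566 and 0.262. Ppp1r3c joined the joint calls without 0 h replicate 2 (edgeR adjusted p 0.0405), and Pygl without 0 h replicate 2 (0.0427), 2 h replicate 3 (0.0342), 12 h replicate 2 (0.0405) or 12 h replicate 3 (0.0310).

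Whether liver and brown fat differ in their late fast change was tested directly in the 17 mice with both organs, by limma on each mouse's LIV minus iBAT difference. Ppp1r3b differed by 1.40 on the log2 scale (SE 0.377, limma adjusted p 0.0306), with changes of -0.51 in LIV and -1.91 in iBAT. Ppp1r3c also differed by 1.40 (SE 0.427, limma adjusted p 0.0452), with 0.58 in LIV and -0.83 in iBAT, while Gys2 at 0.85 was not called (0.0502). These were 2 of 8 glycogen genes, where 13.0 percent of 12528 genes were called. That background itself rests on single mice: of all genes 1631 were called, and leaving out 1 fed or late mouse gave from 6 (without 0 h replicate 2) to 3119 (without 22 h replicate 3). The Ppp1r3b call was lost without the mouse at 0 h replicate 1 (limma adjusted p 0.0545), 0 h replicate 2 (0.127), 0 h replicate 3 (0.0777), 18 h replicate 3 (0.0509) or 22 h replicate 2 (0.0905). The Ppp1r3c call was lost without 0 h replicate 1 (limma adjusted p 0.108), 0 h replicate 2 (0.141), 0 h replicate 3 (0.0824), 18 h replicate 2 (0.0692), 18 h replicate 3 (0.0755) or 22 h replicate 2 (0.104).

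The same difference was taken between LIV and 4 other organs, where limma called 0 glycogen genes each time. LIV minus BRN had 3.97 percent of 12620 genes called. At unadjusted p under 0.05 lay 4 of its 8 glycogen genes, beside 3492 of all genes. Among the 4 was Ppp1r3g at 2.12 (limma adjusted p 0.0608). LIV minus STM had 0.444 percent called and 0 of 7 at unadjusted p under 0.05, beside 2270 of 13058 genes. LIV minus pgWAT had 0.0152 percent called and 2 of 8, beside 2489 of 13126. LIV minus psWAT had 0.00766 percent called and 1 of 8, beside 590 of 13058. DESeq2 was not run on these differences. Ppp1r3b and Ppp1r3c differed by 1.69 and 1.43 between LIV and pgWAT, without a call (limma adjusted p 0.231 and 0.159).

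White fat stores little glycogen, but a rise after refeeding is known, so the targeting subunits are of interest there. In pgWAT Ppp1r3c measured 110, 113.7 and 122.9 normalized CPM in fed mice and 57.8, 37.3 and 46.5 already at 2 h. It stood at 48.8, 30.8 and 45.9 at 18 h and 41.9, 47.8 and 113.6 at 22 h, so 5 of 6 late libraries lay below all fed ones. Ppp1r3b measured 37.2, 64.1 and 138.6 normalized CPM fed, 20.5, 11.9 and 7.83 at 18 h, and 6.85, 48.9 and 13.9 at 22 h, also with 5 of 6 below. Neither was called, at log2 changes of -1.12 (edgeR adjusted p 0.0902) and -2.18 (0.110). Ppp1r3b was called without 22 h replicate 2 (-2.82, edgeR adjusted p 0.0384), the library with epididymis and testis markers, and Ppp1r3c without 22 h replicate 3 (-1.42, 0.0480). edgeR called 0 of 8 glycogen genes in pgWAT in the late fast (0.00609 percent of all genes called, 2 at unadjusted p under 0.05, 2 in DESeq2), the daytime fast (0 percent, 1 and 0) and the joint test (0 percent, 2 and 2). All fed libraries of pgWAT ran in lane 5 and all late ones in lane 6. With almost no gene called in this organ, a count of 0 says little about the glycogen genes.

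psWAT samples differed strongly in make-up, with adipocyte markers from 425 to 25752 CPM. Ppp1r3b in psWAT ran from 420, 257 and 43.7 normalized CPM in fed mice to 14.2, 6.01 and 14.8 at 18 h and 2.36 and 158 at 22 h. Its log2 change of -2.98 was not called (edgeR adjusted p 0.936), with 4 of 5 late libraries below all fed ones. The fed library with the lowest Ppp1r3b, replicate 3, also had the lowest fed adipocyte sum, 1220 CPM. Brown adipocyte markers summed to 1303, 905 and 15.7 CPM in the 3 fed libraries, in the order of their Ppp1r3b, and the part of these markers was not tested. In psWAT edgeR called 0 of 8 in the late fast (0 percent of genes called, 1 at unadjusted p under 0.05, 0 in DESeq2), in the daytime fast (0 percent, 1 and 0) and in the joint test (0 percent, 5 and 4). The share of all genes at unadjusted p or in DESeq2 is not given, so the 5 and 4 have no background to be read against.

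In the stomach, which the fast empties, edgeR's main fits called 0 of the 7 glycogen genes tested. Gyg and Ppp1r3b came nearest in the late fast. Lane splits by time as in LIV, with all fed libraries in lane 5 and all late ones in lane 6. Gyg measured 41.98, 39.5 and 39.8 normalized CPM in fed STM, 53.8, 48.8 and 51.7 at 18 h, and 46.8, 55.9 and 80.3 at 22 h, so 6 of 6 late libraries lay above the fed ones. The log2 change was 0.47 (SE 0.192, edgeR adjusted p 0.1002). Ppp1r3b was 17.3, 23.995 and 26.1 normalized CPM fed and 7.36 to 27.9 late, with 5 of 6 below all fed ones (log2 -0.62, edgeR adjusted p 0.0933). Both were called without 22 h replicate 1, Gyg at 0.57 (edgeR adjusted p 0.0456) and Ppp1r3b at -0.80 (0.0236), and Gyg passed the joint test without 8 h replicate 3 (0.0376) or 22 h replicate 1 (0.0314). As it stands edgeR called 0 of 7 in STM in the late fast (15.3 percent of genes called, 2 at unadjusted p under 0.05, 0 in DESeq2), the daytime fast (0 percent, 0 and 0) and the joint test (6.55 percent, 2 and 2). The 2 in DESeq2 were Gyg and Gys2, which did not pass the filter in STM and is not among the 7. Stomach epithelium markers (6 of 6 genes, led by Gkn1) spanned 13102 to 90954 CPM, and skeletal muscle markers 68.0 to 5647 CPM. STM 22 h replicate 3, with the highest late Gyg, held the most skeletal muscle, smooth muscle (20313 CPM) and keratinocyte markers (5834 CPM) of the organ. The part of these markers was not tested.

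Brain glycogen lies mainly in astrocytes, and in BRN the gene that primes it was called in the daytime fast. Gyg measured 27.8, 33.5 and 27.8 normalized CPM in fed BRN, 44.7 and 47.8 at 8 h, 38.6, 59.6 and 41.8 at 12 h, 46.7 and 37.2 at 18 h, and 50.7, 54.4 and 39.3 at 22 h. In the daytime fast 5 of 5 libraries lay above the fed ones, a log2 change of 0.64 (SE 0.191, edgeR adjusted p 0.0458). Of 9 alternatives 3 called it, with edgeR adjusted p from 0.0122 to 0.821 over them. Time runs with library series here, since all 3 fed libraries have one leading number in their deposited names, called library series here, and 4 of 5 daytime and 5 of 5 late ones have the other, and over all genes the daytime change ran with exon length (Spearman rho -0.466, across genes). Gyg was not called with series in the fit (0.58, edgeR adjusted p 0.443) or with the length trend taken out (0.40, 0.271). Leaving out 0 h replicates 1, 2 or 3 (edgeR adjusted p 0.191, 0.0843 and 0.140), 2 h replicates 1 or 3 (0.0583 and 0.0594), 8 h replicates 1 or 2 (0.10001 and 0.124), 12 h replicate 2 (0.0716) or 22 h replicate 1 (0.0643) lost the call. The late change of Gyg was 0.60 (SE 0.192, edgeR adjusted p 0.0513), with 5 of 5 libraries above the fed ones. It was called without 12 h replicate 2 (0.60, edgeR adjusted p 0.0238) or 22 h replicate 3 (0.66, 0.0202), and was 0.68 without 18 h replicate 3. Without 18 h replicate 3, the 18 h mean rested on replicate 2 alone, a library that stands apart. The late log2 changes were then -4.44 for Ppp1r3b, 0.81 for Ppp1r3g and 0.47 for Pygb, and no call is read from that fit. Ppp1r3b averaged only 2.21 normalized CPM in BRN, a level of few counts. In BRN the daytime fast called 1 of 8 glycogen genes, where 8.16 percent of 16749 genes were called. The late fast called 0 of 8 in edgeR's test beside 11.2 percent of genes (2 at unadjusted p under 0.05, 1 in DESeq2), and the joint test 0 of 8 beside 0.00597 percent (1 and 0).

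In OB the joint test called Ppp1r3g (edgeR adjusted p 0.00842), in all 6 alternatives, lane among them, and without any 1 of the 18 libraries. All fed libraries of OB ran in lane 3 and all late ones in lane 4. Its values were 3.33, 5.28 and 3.11 normalized CPM in fed OB, 5.76, 4.86 and 7.08 at 2 h, 3.04, 2.20 and 2.85 at 8 h, 4.64, 3.97 and 4.70 at 12 h, 4.70, 4.18 and 6.22 at 18 h, and 7.77, 5.33 and 6.12 at 22 h, with the lowest group at 8 h. This was 1 of 8 glycogen genes, where 15.4 percent of 16742 genes were called. The late fast called 0 of 8 in edgeR's test beside 1.95 percent of genes (1 at unadjusted p under 0.05, 0 in DESeq2), and the daytime fast 0 of 8 beside 0 percent (0 and 0).

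CBL and BST showed no call among their 8 tested glycogen genes in edgeR's tests. In CBL the late fast had 0.344 percent of genes called (1 glycogen gene at unadjusted p under 0.05, 0 in DESeq2), the daytime fast 0 percent (1 and 0), and the joint test 2.99 percent (4 and 2). Ppp1r3c came nearest there, at an edgeR adjusted p of 0.0768 in the joint test, and was called without 8 h replicate 1 (0.0485) or 18 h replicate 3 (0.00509). In BST the late fast had 0.0596 percent of genes called (1 and 0), the daytime fast 0.00596 percent (1 and 0), and the joint test 0.107 percent (1 and 0). Ppp1r3g in BST lay above all fed libraries in 5 of 6 late ones, at a log2 change of 0.62 without a call (edgeR adjusted p 0.371).

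Other glycogen genes, a list of 29 with lysosomal enzymes, phosphorylase kinase, further phosphatase subunits, synthase kinases and enzymes of sugar phosphate supply, were read in the late fast beside the members. In LIV 5 of 25 tested were called, 4 up and 1 down, where 10.6 percent of all genes were called. G6pc3, a glucose phosphatase subunit, rose from 10.5, 12.8 and 12.7 normalized CPM fed to between 15.3 and 23.8 late (median 17.3), above the fed ones in 6 of 6 (log2 0.59, edgeR adjusted p 0.0215). It was not called without 0 h replicate 1 (0.51, edgeR adjusted p 0.113) or 0 h replicate 2 (0.64, 0.0611). Slc2a2, the liver glucose transporter, fell from 322, 344 and 209 normalized CPM fed to between 180 and 222 late (median 209.7), with 3 of 6 below all fed ones (log2 -0.51, edgeR adjusted p 0.0129). It was not called without 0 h replicate 1 (-0.44, edgeR adjusted p 0.0830) or 0 h replicate 2 (-0.38, 0.121).

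Phosphorylase kinase switches phosphorylase on, and a pair of its subunits rose in LIV. Phka2 rose by 0.54 (edgeR adjusted p 0.0377, 5 of 6 late libraries above all fed ones), lost without 0 h replicates 1, 2 or 3 (0.0801, 0.0674 and 0.176), 18 h replicate 2 (0.0537), 22 h replicate 1 (0.0549) or 22 h replicate 2 (0.0846). Phkg2 rose by 0.46 (edgeR adjusted p 0.0361, 6 of 6), lost without 0 h replicate 1 (0.194), 0 h replicate 2 (0.167), 18 h replicate 2 (0.0510), 22 h replicate 2 (0.0679) or 22 h replicate 3 (0.0530). Gsk3a, a kinase that switches synthase off, rose by 0.35 (edgeR adjusted p 0.0410, 6 of 6), lost without 0 h replicates 1, 2 or 3 (0.0754, 0.0834 and 0.191), 2 h replicate 3 (0.0507), 12 h replicates 2 or 3 (0.0553 and 0.0547), 18 h replicates 2 or 3 (0.0666 and 0.0683) or 22 h replicates 2 or 3 (0.0582 and 0.0809). None of the 5 LIV genes was called with lane in the fit, where the edgeR adjusted p ran from 0.175 for Phkg2 (range over alternatives 0.0140 to 0.175) to 0.889 for Gsk3a (0.0275 to 0.889). The log2 changes with lane were 0.78 for Phkg2, 0.83 for G6pc3 and -0.65 for Slc2a2, larger than without it, and 0.39 for Phka2 and 0.09 for Gsk3a, smaller. Gsk3a was also not called with no filter (edgeR adjusted p 0.0910) or with the replicate number as a block (0.0616). Without the pair of 12 h libraries rich in muscle markers, neither Gsk3a (edgeR adjusted p 0.0639) nor Phka2 (0.0510, range 0.0112 to 0.599) was called. Their log2 changes without that pair were 0.35 and 0.53, near those of the main fit. Phkg2 and Gsk3a share 876 and 820 bases of exon with genes on the other strand, and Gys1 shares 310 with Ruvbl2, which matters if counting ignored the strand.

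In iBAT 5 of 26 other glycogen genes were called, 1 up and 4 down, near the share of 20.9 percent over all genes. Hk2, which feeds glucose into the pathway, fell from 592, 763 and 601 normalized CPM fed to 236, 118.8 and 204 at 18 h and 58.6 and 97.5 at 22 h, below the fed ones in 5 of 5 (log2 -2.43, edgeR adjusted p 0.000301). It was still called without the 22 h libraries (-1.82, edgeR adjusted p 0.0391, range over alternatives 2.31e-11 to 0.0391). Gsk3b fell by 1.36 on the log2 scale (5 of 5 below the fed ones, edgeR adjusted p 0.00447). Without the 22 h libraries Gsk3b was not called (-0.73, edgeR adjusted p 0.395, range over alternatives 0.000132 to 0.395). In the daytime fast Hk2 was the 1 gene called of 26 (-1.30, edgeR adjusted p 0.0451), where 0.819 percent of all genes were called, and in LIV 2 of 25 were called beside 8.89 percent, G6pc3 at 0.63 and Pgm2 at -0.43.

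Stomach and brain also had calls among these genes in the late fast. In STM 3 of 26 were called, beside 15.3 percent of all genes, with Pgm1 down by 1.11 (6 of 6 below the fed ones, edgeR adjusted p 0.0132), Ppp1r3d up by 1.11 (6 of 6, 0.0193) and Phkg2 up by 1.04 (5 of 6, 0.0182). Without 0 h replicate 3 Ppp1r3d (1.14, edgeR adjusted p 0.0734) and Phkg2 (0.85, 0.105) lost the call. With lane in the fit none of the 3 was called, at log2 changes of 1.30 for Phkg2, 0.95 for Ppp1r3d and -0.49 for Pgm1. With all libraries Pgm1 (edgeR adjusted p 0.0537, range over alternatives 0.00269 to 0.861) and Phkg2 (0.0611, range 0.00315 to 0.725) were not called either. In BRN 1 of 25 was called, beside 11.2 percent of all genes, Gsk3b at -0.81 (4 of 5 below all fed ones, edgeR adjusted p 0.0257). Of its alternatives, all libraries (-1.03, edgeR adjusted p 0.393), leaving out the libraries that stand apart (-0.63, 0.121), lane (-0.63, 0.573), library series (-0.73, 0.490) and the length trend taken out (-0.40, 0.165) lost the call, over a range of 0.000918 to 0.573. It was also lost without 0 h replicates 1, 2 or 3 (0.153, 0.0704 and 0.0621), 18 h replicate 2 (0.1004), 22 h replicate 1 (0.0626) or 22 h replicate 2 (0.0631). edgeR's late fast test called 0 of 25 in OB beside 1.95 percent of all genes (3 at unadjusted p under 0.05, 0 in DESeq2). It called 0 of 24 in CBL beside 0.344 percent (3 and 1), 0 of 25 in BST beside 0.0596 percent (4 and 0), 0 of 25 in pgWAT beside 0.00609 percent (3 and 2) and 0 of 26 in psWAT beside 0 percent (0 and 1). At those shares a count of 0 says little about the list.

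Genes whose levels ran most like those of the glycogen genes were sought over 54 means, 1 per organ and time, by Pearson's r of log2 normalized CPM. The points share organs and mice, so r describes the pattern between organs and carries no test. Pygl ran with Pck1 (0.979), Acsl1 (0.973) and Pfkfb1 (0.972), genes of glucose and fatty acid handling in liver and fat. Gys2 ran with Mlxipl (0.980), which encodes a glucose-responsive transcription factor, and with Nudt7 (0.976) and Apoc1 (0.968). Gbe1 ran with Acadm (0.945), Echdc1 (0.944) and Mut (0.936), and Ppp1r3b with Slc25a48 (0.933) and Acaa2 (0.928) after Scarf1 (0.945). The closest genes were Bckdk for Gys1 (0.950), Adam15 for Pygb (0.970), Ly6c1 for Gyg (0.961), Ddhd2 for Ppp1r3c (0.888) and Mroh7 for Ppp1r3g (0.913). Within the 18 LIV libraries, Ppp1r3g ran most like Foxo3 (0.876), Ugcg (0.875) and Igfbp3 (0.874), and Gbe1 like Ndst1 (0.922), Pygl like Agpat2 (0.950), Gys1 like Pde6g (0.881) and Ppp1r3b like Gimap9 (0.883).

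Promoters were taken as the 250 bases upstream of the RefSeq start in build GRCm38.p6, for 8 of the 10 genes matched to it, and searched on both strands. Gys2 and Ppp1r3b were not matched, so their promoters were not searched. Among the 8, the E-box CACGTG occurred in Ppp1r3c only, against 6.02 percent of 32841 such windows. The half-site TGACG of the cAMP response element occurred in Pygl, Pygb and Ppp1r3g (17.8 percent of windows), and CCAAT in Gys1, Ppp1r3c and Ppp1r3g (33.9 percent). The forkhead motif GTAAACA, found in 3.17 percent of windows, occurred in none of the 8. The windows of Pygl and Ppp1r3g lie inside the Gencode spans given above, downstream of their outermost starts, since the RefSeq start differs. A match describes the sequence and does not show that a factor binds there. Printed here, in transcript direction with motifs in capitals, are the windows of 4 of the genes called in LIV or iBAT: Gbe1 (chr16:70313699-70313948, plus strand), Pygl (chr12:70227684-70227933, minus strand), Ppp1r3c (chr19:36736605-36736854, minus strand) and Ppp1r3g (chr13:35967656-35967905, plus strand).

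Gbe1: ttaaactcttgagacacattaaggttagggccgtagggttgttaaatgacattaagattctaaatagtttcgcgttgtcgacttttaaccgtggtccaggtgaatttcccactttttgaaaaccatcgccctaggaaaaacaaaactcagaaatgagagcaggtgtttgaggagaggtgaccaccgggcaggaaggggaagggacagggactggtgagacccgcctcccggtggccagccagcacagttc
Pygl: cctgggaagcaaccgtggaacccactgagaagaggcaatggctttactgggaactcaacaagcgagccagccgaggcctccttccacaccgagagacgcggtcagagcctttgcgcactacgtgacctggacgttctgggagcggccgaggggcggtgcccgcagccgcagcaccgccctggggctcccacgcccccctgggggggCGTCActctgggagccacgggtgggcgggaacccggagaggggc
Ppp1r3c: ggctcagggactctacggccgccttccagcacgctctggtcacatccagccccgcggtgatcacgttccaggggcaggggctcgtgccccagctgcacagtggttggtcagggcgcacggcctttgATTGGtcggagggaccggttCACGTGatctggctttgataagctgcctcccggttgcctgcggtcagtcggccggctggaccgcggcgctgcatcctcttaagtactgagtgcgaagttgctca
Ppp1r3g: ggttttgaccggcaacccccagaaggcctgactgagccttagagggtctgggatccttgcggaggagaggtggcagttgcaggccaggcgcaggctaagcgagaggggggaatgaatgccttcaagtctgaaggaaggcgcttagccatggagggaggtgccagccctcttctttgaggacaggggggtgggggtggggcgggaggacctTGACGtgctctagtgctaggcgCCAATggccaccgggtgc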

How the data were processed

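The deposited count table holds, per gene and library, the reads the authors assigned to exons: paired 150 bp reads of stranded TruSeq libraries from HiSeq 4000 were aligned with TopHat2 2.1.1 to GRCm38.p5 and counted with HTSeq 0.9.1 over the Gencode M16 annotation. The strand setting of that counting is not stated. Libraries of low depth that the authors set aside were left out here too. Everything else was computed here from these counts.

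In R 4.3.3, each organ was fitted by fasting time with edgeR 4.0.16 (TMM factors, robust quasi-likelihood test, Benjamini-Hochberg adjustment over all genes kept), and a gene was called at adjusted p under 0.05. Genes were kept at a CPM equal to 10 counts in the organ's median library in at least 3 libraries. Normalized CPM are CPM on library sizes scaled by TMM factors taken within each organ, and per kb values divide them by exon length. They are thus not normalized between organs, while the organ contrasts used TMM factors over all organs. Organ contrasts and LIV minus organ differences (limma 3.58.1) took the mouse as block. Alternatives were normalization by RLE, no filter, all libraries, lane, library series (the leading number of the deposited column names) and replicate terms, leaving out libraries, a log2 threshold, and DESeq2 1.42.0. A length trend correction, LIV without the 12 h libraries rich in muscle markers, iBAT without 22 h, and the tests within lanes were added after seeing the data. Tables and figures were made in Python 3.11.15 with pandas 2.3.3 and matplotlib 3.10.9.

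Gene coordinates are those of Gencode M21 on GRCm38. Promoter sequences and coordinates are from RefSeq. The 10 genes, the list of 29 other glycogen genes and the 13 cell type marker lists were chosen with earlier results of these data known. All 10 genes were followed in every organ, and the text gives those with a call or a level of interest there, chosen after their values were seen. Other glycogen genes are named where called in the late fast, at most 10 in LIV and 3 in each other organ by absolute log2 change, and the daytime calls were named after their values were seen. The genes most like a member are the 3 with the highest Pearson r. Markers served to describe the libraries and entered no fit. Some genes and markers of these lists are not reported here. Protein sequences and glycogen content were not analysed here.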

Additional observations from a re-analysis of the deposited data

Results flagged for a closer look

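For a pair of phosphatase targeting subunits the late fast change differed between organs by a test of the difference itself. For Ppp1r3b the change in LIV minus that in iBAT was 1.40 on the log2 scale (limma adjusted p 0.0306, SE 0.377), from -0.51 in LIV and -1.91 in iBAT. For Ppp1r3c the same difference was also 1.40 (limma adjusted p 0.0452, SE 0.427), from 0.58 and -0.83. In LIV alone the late change of Ppp1r3c was not called (log2 0.44, edgeR adjusted p 0.681), and its late libraries shared no direction. In single libraries, all 5 late iBAT values of Ppp1r3b (142.7 to 492 normalized CPM) lay under the fed ones (831 to 1234), and 5 of 6 late LIV values (178 to 638) lay under the fed ones there (539 to 551). The pair made 2 of 8 glycogen genes tested, where 13.0 percent of 12528 genes were called. Over the 8 fits that leave out 1 fed or late mouse, 0 to 3 glycogen genes were called, and Ppp1r3b lost its call in 5 and Ppp1r3c in 6. The calls over all genes moved as well, with 6 without 0 h replicate 2 and 1262 without 0 h replicate 3. In LIV lane goes with fasting time, the iBAT samples vary in adipocyte and muscle markers, and neither was tested as a cause.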

How the results depend on the processing

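No called change of a glycogen gene reversed its direction. The balance over all genes in the organ contrasts did turn in iBAT and BRN when all libraries were used. In iBAT it went from 7556 higher and 7926 lower to 7702 and 7435. In BRN it went from 8129 higher and 7998 lower to 7486 and 8489. The other organs kept the side of their balance. Counts of called glycogen genes moved beyond 1.5 times the count in 57 cases under the alternatives and stayed within it in 265, and single genes lost their call in 60. Fits that leave out 1 library or mouse enter these numbers only as a highest and a lowest case. Single calls were therefore lost in more fits than 60. Unless a value shows it, the cause was not tested. For most of these alternatives the share of all genes called is not given. Their counts are therefore not read as results about the glycogen genes.

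In the joint test, CBL and STM had 2 glycogen genes called with no filter and 2 with DESeq2, and 0 to 1 over the fits that leave out 1 library. LIV (5) had 2 with lane in the fit, 3 without 12 h replicates 1 and 2, and 3 at the lowest of the fits that leave out 1 library. iBAT (4) had 2 with library series, which sets apart 22 h replicate 2 alone, 2 with the length trend taken out, 0 without 22 h, 7 with DESeq2, and 2 at the lowest of leaving out 1 library. DESeq2 called 2 in pgWAT and 4 in psWAT, and psWAT had 1 with all libraries.

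In the late fast, BRN had 1 with DESeq2 and gained calls when 1 library was left out. Among those fits, the one without 18 h replicate 3 leaves 1 library at 18 h. STM had up to 2 when leaving out 1 library. LIV (3) had 0 with lane in the fit, 1 under the log2 threshold and 1 at the lowest of leaving out 1 library. iBAT (5) had 3 with library series, 3 with the length trend taken out, 0 without 22 h, 1 under the log2 threshold and 3 to 6 over leaving out 1 library. pgWAT had 1 without the libraries that stand apart, 2 with DESeq2 and up to 1 when leaving out 1 library.

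In the daytime fast, the 1 gene of BRN was lost (0) with no filter, all libraries, lane, library series, the length trend taken out, the log2 threshold, and at the lowest of leaving out 1 library. LIV had 1 with no filter. iBAT had 1 with no filter, 1 with the length trend taken out, 2 with DESeq2 and up to 1 when leaving out 1 library.

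Late against daytime fast in LIV (2) had 7 with no filter, 4 with DESeq2, 1 with the length trend taken out, 0 with lane in the fit, 0 without 12 h replicates 1 and 2, 0 under the log2 threshold, and 0 to 4 over leaving out 1 library. LIV minus iBAT (2) ran from 0 to 3 over leaving out 1 fed or late mouse. It had 0 beside 1262 of 12528 genes called without 0 h replicate 3, and 3 beside 1124 without 18 h replicate 1. LIV minus BRN (0) had 1 beside 1510 of 12620 genes called without 22 h replicate 3. It gained more calls without 18 h replicate 3, which leaves 1 mouse at 18 h.

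With the replicate number as a block, LIV had 3 called in the joint test and 1 in late against daytime, BRN 1 in the late fast and 0 in the daytime fast. Replicate numbers were not used to pair libraries within an organ. The deviations of libraries that share a number from their group means correlated at over 0.1 in 7 of 45 pairs in LIV and 20 of 40 in iBAT. In iBAT the mean r was 0.157 for the same number and -0.0787 for other numbers, so a pairing there is not excluded. With the block iBAT had 5 called in the late fast and 3 in the joint test.

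Depth limits what can be seen of Ppp1r3g in LIV, where fed libraries held 0 to 5 counts. No filter puts many genes of few counts into the fit and the adjustment. Without it, adjusted p fell for several glycogen genes at nearly the same log2 change, and the cause was not tested. For Ppp1r3c in LIV, late against daytime fast, the edgeR adjusted p was 0.333 with the filter and 2.99e-10 without.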

Other observations

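The 5 libraries left out for low depth enter no comparison. iBAT 22 h replicate 1 (2700482 reads) held 426 counts of Ppp1r3b (158 CPM), 278 of Ppp1r3c, 1343 of Pygl (497 CPM) and 370 of Gyg. STM 12 h replicate 3 (4590060 reads) held 438 counts of Pygb, 336 of Gys1, 280 of Gyg, 73 of Gbe1 and 42 of Ppp1r3b. psWAT 22 h replicate 2 (2944552 reads) held 275 counts of Pygl, 223 of Gys1 and 90 of Ppp1r3b. BRN 18 h replicate 1 (279848 reads) held 55 counts of Pygb, 25 of Ppp1r3c and 11 of Gys1, and BRN 8 h replicate 3 (130701 reads) 15 of Ppp1r3c and 4 of Pygb.

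In STM, Gys2 reached 8.51 normalized CPM in 12 h replicate 2 and 1.77 in 0 h replicate 3, where the hepatocyte markers summed to 2735 and 2106 CPM. Apoa1 led that sum in STM, at a mean of 1085 CPM. Slc2a2, the liver glucose transporter, lay at 8.65 normalized CPM in 12 h replicate 2 and at 0.295 in 0 h replicate 3, so the libraries were not alike. Over STM the hepatocyte sum ran from 633 to 2735 CPM, the smooth muscle markers from 4733 to 20313 CPM and the keratinocyte markers, led by Krt10, from 110 to 5834 CPM. Neuron markers ran from 1930 to 4321 CPM in BRN, cerebellar neuron markers from 3889 to 4839 CPM in CBL and astrocyte markers from 1941 to 2493 CPM in CBL. Pancreas acinar markers summed to at most 215 CPM, in psWAT 12 h replicate 1. The part of these markers in the results was not tested.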
